A study of Mus musculus with 12 samples.

Results

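The genes described here encode the machinery that copies DNA: 37 genes for origin licensing, the replicative helicase, the polymerases and primase, the sliding clamp and its loader, single-strand binding and strand joining, nucleotide supply, chromatin assembly and the E2F transcription factor E2f1. They were taken as a named list, and their measurements are all probe sets (groups of short probes on the array that read 1 transcript) annotated to exactly 1 of these symbols, which came to 83 of the 45101 probe sets. No probe set of exactly 1 symbol was annotated to Chaf1a, so 36 genes were read, and all 36 passed the filter on low values through at least 1 probe set. RNA was measured on Affymetrix arrays from whole mouse testis at postnatal day 7 in 3 groups of 4 arrays, wild type, Sohlh1 KO and Sohlh2 KO (the homozygous deletions Sohlh1-/- and Sohlh2-/-), all on the hybrid background C57BL/6, 129S5, SvEvBrd. Each array held a pool of 3 testes, 1 from each of 3 animals, so the spread between arrays is a spread between pools, and nothing in the labels says how the pools of different arrays relate. The deletions are not described as restricted to a cell type.

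The proteins encoded by Sohlh1 and Sohlh2 are germ cell transcription factors of the basic helix-loop-helix class, needed for spermatogonia, the mitotic germ cells of the testis, to differentiate. Before a cell copies its DNA, the origin recognition complex, Cdc6 and Cdt1 load the ring-shaped Mcm2 to Mcm7 helicase onto DNA, Cdc45 and the GINS proteins turn it on, and polymerases then follow the opened fork on the sliding clamp Pcna. Many of these genes are transcribed mainly in cycling cells, in large part through E2F factors, and in a testis of this age both spermatogonia and the supporting Sertoli cells divide. In whole-tissue RNA, fewer cells of a type and less RNA per cell cannot be told apart.

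The targeted genes did not follow every label. Sohlh1 read 1125 to 1233 intensity units in wild type, 104, 61.0 and 50.2 on the arrays labelled Sohlh1 KO 2, 3 and 4, and 595 on the array labelled Sohlh1 KO 5. Sohlh2 read 885 to 1200 in wild type, 157, 93.6 and 73.2 on the arrays labelled Sohlh2 KO 3-1, 4 and 5, and 1847 on the array labelled Sohlh2 KO 1. The array labelled Sohlh1 KO 5 had 94.4 for Sohlh2, within the range of those 3 arrays, and the array labelled Sohlh2 KO 1 had 126 for Sohlh1, near the lowest arrays of the other group. Sohlh1 read 465 to 563 on the arrays labelled Sohlh2 KO 3-1, 4 and 5, near the 595. Sohlh2 read 1556 to 1783 on the arrays labelled Sohlh1 KO 2, 3 and 4, near the 1847. In both genes these 2 arrays thus read like the other knockout label. The labels do not say whether these probes lie in the deleted parts. Groups are used as labelled, and each direction below is between labelled groups. The mean of both knockouts against wild type is given throughout. With all arrays used, its estimate would stay the same if the knockout labels of 2 arrays were exchanged. Its SE and p rest on the spread within the labelled groups and could change. The arrays labelled Sohlh1 KO 2 and Sohlh2 KO 1 also had the highest ratios of 3' to 5' signal, a sign of RNA quality, with 2.10 and 3.56 for Actb against 1.30 to 1.45 on the other 10 arrays.

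Replication genes fell in both knockouts, and none rose past the test. Called lower were 12 of the 36 genes (33.3%) in the arrays labelled Sohlh1 KO, 11 (30.6%) in those labelled Sohlh2 KO and 14 (38.9%) in the mean of both knockouts, where a call is an adjusted p under 0.05 in limma with Benjamini-Hochberg adjustment over all 13702 genes tested. Over all genes tested, the shares called lower in the same 3 comparisons were 2.69%, 2.15% and 3.88%, the shares called higher were 1.76%, 1.60% and 3.05%, and the shares called in either direction were 4.44%, 3.75% and 6.93%. The median log2 difference of the 36 genes was -0.31, -0.22 and -0.27, against 0.03, 0.02 and 0.03 over all genes. Estimates were negative for 32, 31 and 31 of the 36 genes, against 44.4%, 45.8% and 44.9% of all genes. The 2 knockout comparisons share their wild-type arrays, so that the likeness of their counts is not independent evidence. The list was chosen with earlier results of these data known, so its shares are a description and not an independent test.

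The falls were modest in size: the 14 genes had mean intensities of 56.5% to 80.3% of wild type in the arrays labelled Sohlh1 KO and 62.7% to 84.6% in those labelled Sohlh2 KO. Of these, 10 genes, Orc1, Cdc6, Mcm2, Cdc45, Pola2, Pold1, Pcna, Fen1, Rrm1 and Rrm2, were called in each knockout on its own. Mcm3 and Mcm4 were called in the Sohlh1 KO comparison and Gins2 in the Sohlh2 KO comparison, and Rpa2 was called in the mean of both. None of the 36 genes differed between the knockouts themselves by limma, a comparison in which 0% of all genes was called. There, 1 of the 36 genes had an unadjusted p under 0.05, as had 390 of all 13702 genes, and the smallest adjusted p of the 36 was 0.99987. A call in 1 knockout and not in the other is therefore no shown difference between them. Neither targeted gene was called in this comparison, with log2 differences of 1.46 for Sohlh1 and -1.84 for Sohlh2 (limma adjusted p = 0.99987 for both). With 1 array in each label whose targeted genes go against it, the lack of calls does not show that the knockouts are alike.

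**Figure D1:**
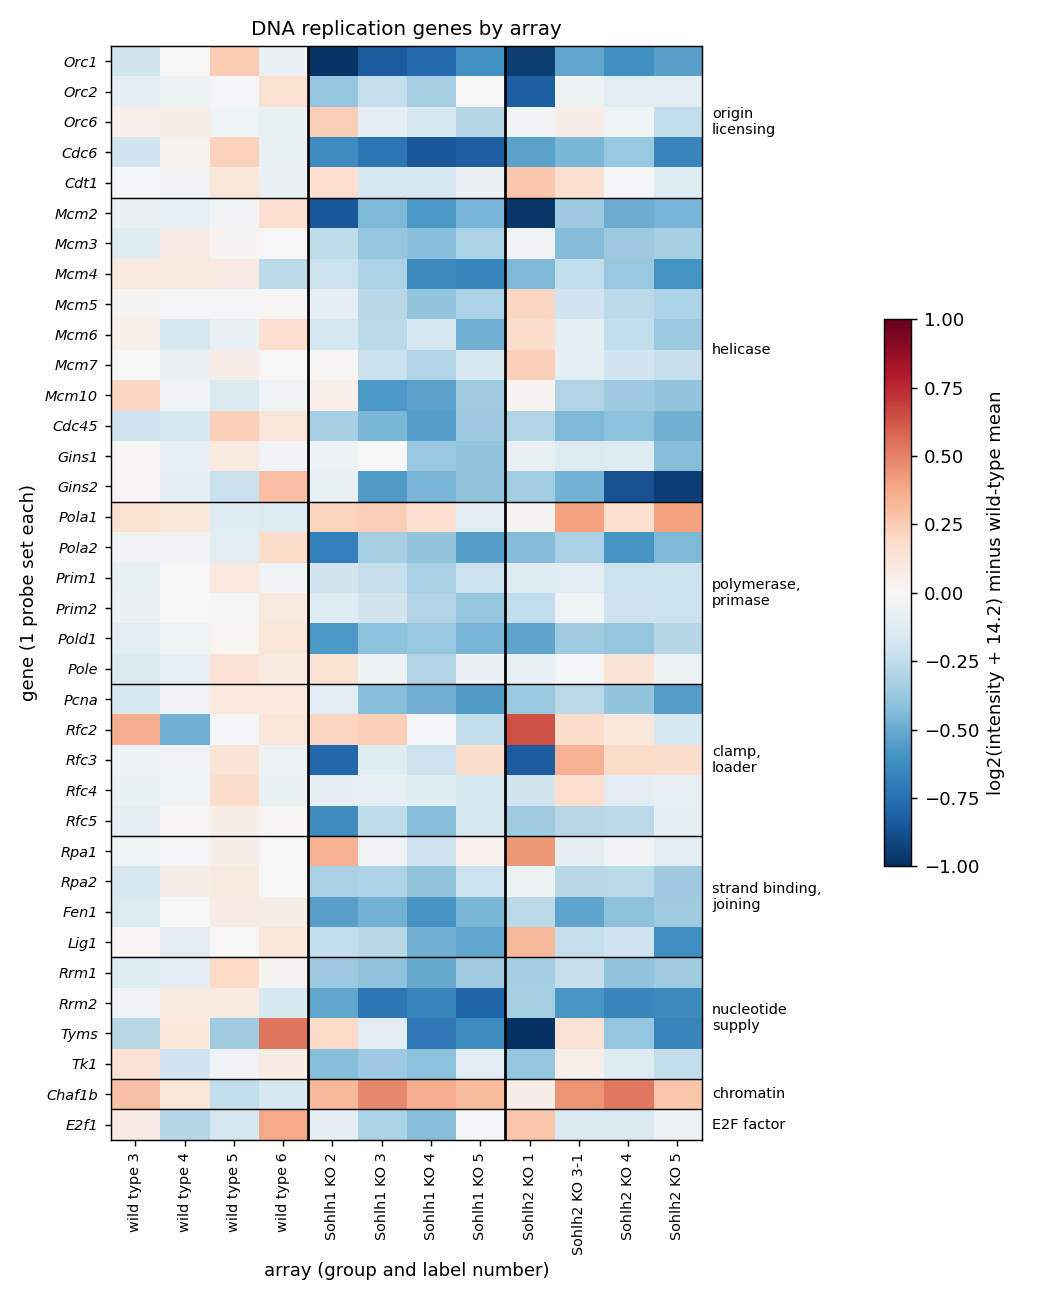
Log2 level of each of the 36 genes (rows, grouped by role) on each of the 12 arrays (columns), as the difference from that gene's wild-type mean; blue is lower and red is higher. Orc1, Cdc6, Mcm2, Fen1 and Rrm2 are blue on all 8 knockout arrays, Chaf1b is pale to deep red on all 8, and Cdt1, Pole and Rfc4 stay pale.

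Loading of the helicase begins with the licensing factors, and here 2 of 5 fell in each comparison. Orc1, the largest subunit of the origin recognition complex, read 630, 716, 861 and 685 in wild type (arrays 3 to 6), 356, 398, 412 and 468 in the arrays labelled Sohlh1 KO (2 to 5) and 365, 498, 464 and 487 in those labelled Sohlh2 KO (1, 3-1, 4 and 5). All 8 knockout arrays were below the lowest wild-type array. The means were 723 ± 98.6, 409 ± 46.1 and 454 ± 60.9 (SD, n = 4 each), and the log2 differences from wild type were -0.80 (SE 0.13, limma adjusted p = 0.00176) and -0.66 (SE 0.13, adjusted p = 0.00899). In the mean of both knockouts Orc1 fell by 0.73 on the log2 scale (SE 0.11, limma adjusted p = 0.000814). This was the furthest of the 36 genes when each is read on its brightest probe set. With all probe sets of a gene averaged, Orc1 lost this call (limma adjusted p = 0.0631).

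Cdc6, the loader that recruits the helicase to the origin, read 633, 743, 852 and 689 in wild type, 463, 432, 396 and 404 in the arrays labelled Sohlh1 KO and 497, 525, 555 and 455 in those labelled Sohlh2 KO. Every knockout array was below every wild-type array, and the knockout labels overlapped at array 5 of Sohlh2 KO, at 455. Its log2 difference was -0.76 (SE 0.11, limma adjusted p = 0.000791) and -0.51 (SE 0.11, adjusted p = 0.0185), and -0.63 (SE 0.10, adjusted p = 0.000814) in the mean of both. Cdt1, its partner in licensing, had the largest p of the licensing genes: 3752, 3689, 4084 and 3623 in wild type, 4252, 3353, 3357 and 3622 in the arrays labelled Sohlh1 KO and 4562, 4218, 3748 and 3475 in those labelled Sohlh2 KO. The groups overlapped fully, and the difference in the mean of both was 0.01 with a 95% interval from -0.18 to 0.19 (limma adjusted p = 0.975). A second, dimmer probe set of Cdt1, above the filter on all 12 arrays, read 1691 ± 155, 1388 ± 140 and 1411 ± 32.0 in the 3 groups (SD, n = 4 each), a difference of -0.27 (limma adjusted p = 0.0995 over all probe sets). Orc2 and Orc6, further subunits of the recognition complex, had differences of -0.26 (adjusted p = 0.254) and -0.07 (adjusted p = 0.732). Orc2 was low on the array labelled Sohlh2 KO 1, at 820, while arrays 3-1, 4 and 5 read 1356 to 1413.

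Promoters of 31 of the listed genes, 36 promoters in all, were found in the RefSeq table of GRCm38.p6, each running from 250 bases before the gene's start to 50 after it. The promoters of Orc1, Cdc6 and Pold1 are shown, since these are the called genes with the smallest p whose promoter held 1 of 4 spellings of the E2F site searched on both strands, TTTCGCGC, TTTGGCGC, TTTCCCGC and TTTCCCGG. Each is printed 5' to 3' on the gene's strand, and the capitals mark the match, which lies on the opposite strand in all 3. Orc1 (chr4:108579204-108579503, plus strand) holds TTTCGCGC from -27 relative to the start, Cdc6 (chr11:98907901-98908200, plus strand) holds TTTCCCGC from -138, and Pold1 (chr7:44548766-44549065, minus strand) holds TTTCCCGC from 40 bases after it.
Orc1: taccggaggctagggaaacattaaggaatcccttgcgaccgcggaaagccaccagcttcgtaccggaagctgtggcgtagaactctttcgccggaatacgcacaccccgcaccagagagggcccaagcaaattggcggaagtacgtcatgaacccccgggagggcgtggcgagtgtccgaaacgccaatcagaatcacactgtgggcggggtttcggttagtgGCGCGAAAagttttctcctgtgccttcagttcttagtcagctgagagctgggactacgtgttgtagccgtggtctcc
Cdc6: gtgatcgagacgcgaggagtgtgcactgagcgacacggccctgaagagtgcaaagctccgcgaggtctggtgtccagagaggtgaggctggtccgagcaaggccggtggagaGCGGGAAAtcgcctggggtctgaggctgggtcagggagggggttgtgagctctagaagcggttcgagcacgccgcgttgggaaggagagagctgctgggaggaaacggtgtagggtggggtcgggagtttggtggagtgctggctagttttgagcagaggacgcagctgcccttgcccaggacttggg
Pold1: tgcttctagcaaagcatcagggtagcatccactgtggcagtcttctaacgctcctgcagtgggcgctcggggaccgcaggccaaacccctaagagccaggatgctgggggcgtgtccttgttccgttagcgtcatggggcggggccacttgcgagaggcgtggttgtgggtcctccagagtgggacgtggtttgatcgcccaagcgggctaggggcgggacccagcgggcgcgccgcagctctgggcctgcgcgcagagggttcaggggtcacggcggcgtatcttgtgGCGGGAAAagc

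Any of the 4 spellings was found in 11 of the 36 promoters (30.6%) and in 3.07% of all 32851 promoters of the same length. By spelling, TTTCGCGC was in 6 of the 36 (16.7%) against 0.323% of all, TTTGGCGC in 5 (13.9%) against 0.514%, TTTCCCGC in 5 against 1.07%, and TTTCCCGG in 0 against 1.28%. Set beside the calls, 4 of 12 called genes with a promoter held a match (Orc1, Cdc6, Mcm3 and Pold1), as did 7 of 18 genes tested and not called (Cdt1, Lig1, Mcm5, Mcm6, Mcm7, Pola1 and Rfc3). The CCAAT box, searched as CCAAT, was in 21 of the 36 (58.3%) against 37.4% of all promoters. Of 3 E-box spellings, the kind of site that basic helix-loop-helix factors bind, CACGTG was in 6 (16.7%) against 7.15%, CAGCTG in 5 (13.9%) against 16.3% and CAGGTG in 3 (8.33%) against 20.2%. A match describes the letters in this window and is not a bound site.

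Among the helicase genes, 4 of 10 fell in the arrays labelled Sohlh1 KO, 3 in those labelled Sohlh2 KO and 5 in the mean of both. Mcm2, a subunit of the helicase ring, read 3687, 3632, 3780 and 4316 in wild type, 2132, 2810, 2574 and 2786 in the arrays labelled Sohlh1 KO and 1955, 2990, 2723 and 2787 in those labelled Sohlh2 KO. Every knockout array was below every wild-type array, and the lowest values were on the 2 arrays of highest 3' to 5' ratio. Its log2 difference was -0.58 (SE 0.13, limma adjusted p = 0.013) and -0.57 (SE 0.13, adjusted p = 0.0165), and -0.58 (SE 0.11, adjusted p = 0.00366) in the mean of both. Without those 2 arrays the last value was -0.47 (adjusted p = 0.000445).

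Mcm3 and Mcm4, also of the ring, fell less evenly. Mcm3 read 3105, 3578, 3448 and 3384 in wild type, 2822, 2575, 2519 and 2709 in the arrays labelled Sohlh1 KO and 3292, 2501, 2615 and 2683 in those labelled Sohlh2 KO. Array 1 of the last label overlapped wild type and the other 7 knockout arrays did not. The log2 differences of Mcm3 were -0.34 (SE 0.09, limma adjusted p = 0.0442), -0.29 (SE 0.09, adjusted p = 0.104) and, in the mean of both, -0.32 (SE 0.08, adjusted p = 0.025). Mcm4 read 4412, 4416, 4394 and 3439 in wild type, 3566, 3321, 2653 and 2608 in the arrays labelled Sohlh1 KO and 3033, 3493, 3176 and 2734 in those labelled Sohlh2 KO. Wild-type array 6 was low for Mcm4 and overlapped 1 array of each knockout label. Its differences were -0.46 (SE 0.12, limma adjusted p = 0.0371), -0.42 (SE 0.12, adjusted p = 0.065) and -0.44 (SE 0.10, adjusted p = 0.0161).

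The other ring subunits and Mcm10, a factor that helps the helicase start, did not pass the test. In the mean of both knockouts Mcm5, Mcm6, Mcm7 and Mcm10 had log2 differences of -0.20, -0.20, -0.12 and -0.30, with limma adjusted p from 0.162 to 0.479. Mcm7 had the largest p of the helicase genes and read 9630, 9257, 10132 and 9667 in wild type, 9759, 8280, 7850 and 8710 in the arrays labelled Sohlh1 KO and 11400, 9096, 8458 and 8231 in those labelled Sohlh2 KO. Here the 2 arrays of highest 3' to 5' ratio were the highest of their labels, and the other 6 knockout arrays were below all 4 wild-type arrays. Without the 2 high-ratio arrays Mcm5, Mcm6, Mcm7 and Mcm10 were called lower in the mean of both, and without those and the array labelled Sohlh1 KO 5, Mcm5, Mcm7 and Mcm10 were.

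Cdc45 and the GINS subunits complete the active helicase. Cdc45 read 876, 896, 1189 and 1092 in wild type, 794, 727, 682 and 776 in the arrays labelled Sohlh1 KO and 814, 734, 751 and 715 in those labelled Sohlh2 KO. No knockout array overlapped wild type, though 2 of the wild-type arrays lay close above them, and the knockout labels overlapped each other. Its log2 difference was -0.43 (SE 0.11, limma adjusted p = 0.0341), -0.41 (SE 0.11, adjusted p = 0.0475) and -0.42 (SE 0.09, adjusted p = 0.0124) in the mean of both. Gins2 read 742, 692, 631 and 908 in wild type, 701, 491, 529 and 553 in the arrays labelled Sohlh1 KO and 577, 526, 397 and 377 in those labelled Sohlh2 KO. The array labelled Sohlh1 KO 2 overlapped wild type, and all 4 arrays labelled Sohlh2 KO were below it. The differences of Gins2 were -0.38 (SE 0.15, limma adjusted p = 0.191), -0.66 (SE 0.15, adjusted p = 0.025) and -0.52 (SE 0.13, adjusted p = 0.0274), and Gins1 had -0.20 (adjusted p = 0.252) in the mean of both.

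Of the polymerase and primase genes, 2 of 6 fell in each comparison, the regulatory subunit Pola2 of the priming polymerase and the catalytic subunit Pold1 of polymerase delta. Pola2 read 817, 817, 775 and 951 in wild type, 517, 664, 635 and 569 in the arrays labelled Sohlh1 KO and 618, 666, 552 and 611 in those labelled Sohlh2 KO. No knockout array reached the lowest wild-type array. Its log2 difference was -0.49 (SE 0.11, limma adjusted p = 0.0165), -0.45 (SE 0.11, adjusted p = 0.0297) and -0.47 (SE 0.09, adjusted p = 0.00578) in the mean of both. Pold1, whose promoter is printed above, read 2215, 2320, 2426 and 2604 in wild type, 1599, 1793, 1832 and 1724 in the arrays labelled Sohlh1 KO and 1650, 1859, 1822 and 1956 in those labelled Sohlh2 KO. Both knockout labels were again below wild type and overlapped each other, with differences of -0.46 (SE 0.09, limma adjusted p = 0.006), -0.39 (SE 0.09, adjusted p = 0.0183) and -0.42 (SE 0.08, adjusted p = 0.00257).

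Pole, the catalytic subunit of polymerase epsilon, had the largest p of its group. It read 1469, 1533, 1795 and 1731 in wild type, 1805, 1573, 1316 and 1557 in the arrays labelled Sohlh1 KO and 1544, 1602, 1790 and 1574 in those labelled Sohlh2 KO. These overlapped throughout, and the difference in the mean of both was -0.03 with a 95% interval from -0.23 to 0.16 (limma adjusted p = 0.874). The catalytic subunit Pola1 of the priming polymerase had a positive estimate, 0.19 (adjusted p = 0.308), opposite in sign to its partner Pola2. The primase subunits Prim1 and Prim2 had -0.20 (adjusted p = 0.0815) and -0.21 (adjusted p = 0.119), and all 8 knockout arrays were below wild type for Prim1.

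The clamp fell and its loader did not pass the test. Pcna, the ring that holds polymerases on DNA, read 11048, 12054, 13187 and 13193 in wild type, 11392, 9183, 8843 and 8345 in the arrays labelled Sohlh1 KO and 9532, 10250, 9396 and 8415 in those labelled Sohlh2 KO. The array labelled Sohlh1 KO 2 was inside the wild-type range and the other 7 knockout arrays were below it. The log2 difference of Pcna was -0.40 (SE 0.10, limma adjusted p = 0.0371), -0.40 (SE 0.10, adjusted p = 0.0418) and -0.40 (SE 0.09, adjusted p = 0.0122). The 4 loader subunits Rfc2, Rfc3, Rfc4 and Rfc5 had 0.12, -0.13, -0.08 and -0.31 in the mean of both, with adjusted p of 0.708, 0.734, 0.592 and 0.0525. Rfc5 was lower on all 8 knockout arrays than on any wild-type array. Rfc3, with the largest p of the group, read 1456, 1472, 1649 and 1453 in wild type, 866, 1380, 1303 and 1700 in the arrays labelled Sohlh1 KO and 842, 1916, 1713 and 1703 in those labelled Sohlh2 KO. Its 2 lowest values, 866 and 842, were on the 2 arrays of highest 3' to 5' ratio, and the others of each label lay on both sides of wild type or above it.

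Among the genes for handling single strands and joining fragments, 1 of 4 fell in each knockout and 2 of 4 in the mean of both. Fen1, the nuclease that trims the flaps left by primers, read 2170, 2375, 2512 and 2488 in wild type, 1634, 1716, 1581 and 1732 in the arrays labelled Sohlh1 KO and 1973, 1648, 1792 and 1855 in those labelled Sohlh2 KO. No knockout array overlapped wild type. It fell by 0.51 on the log2 scale (SE 0.09, limma adjusted p = 0.0021), by 0.39 (SE 0.09, adjusted p = 0.0161) and, in the mean of both, by 0.45 (SE 0.07, adjusted p = 0.00129). A second, dimmer probe set of Fen1 read 2073 ± 149, 1725 ± 429 and 1889 ± 491 in the 3 groups (SD, n = 4 each), which overlapped. Its difference in the mean of both was -0.23 (limma adjusted p = 0.468 over all probe sets). With all probe sets averaged, Fen1 lost all 3 calls (limma adjusted p = 0.053 in the mean of both).

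Rpa2, the middle subunit of the single-strand binding protein, read 2899, 3363, 3448 and 3250 in wild type, 2582, 2607, 2441 and 2780 in the arrays labelled Sohlh1 KO and 3114, 2668, 2679 and 2507 in those labelled Sohlh2 KO. The array labelled Sohlh2 KO 1 lay inside the wild-type range and the other 7 did not. Its differences were -0.31 (SE 0.09, limma adjusted p = 0.0586), -0.24 (SE 0.09, adjusted p = 0.167) and -0.28 (SE 0.08, adjusted p = 0.04). Rpa1, the large subunit, had the largest p here and read 5757, 5860, 6199 and 5959 in wild type, 7570, 5790, 5153 and 6107 in the arrays labelled Sohlh1 KO and 8024, 5585, 5838 and 5535 in those labelled Sohlh2 KO. The 2 high-ratio arrays were the highest of all 12, and the difference in the mean of both was 0.05 (limma adjusted p = 0.853). Lig1, the ligase that seals the fragments, had -0.28 (adjusted p = 0.192).

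Nucleotide supply held the smallest p of all 36 genes. Rrm2, the small subunit of ribonucleotide reductase, the enzyme that makes deoxynucleotides, read 2000, 2176, 2167 and 1830 in wild type, 1415, 1230, 1286 and 1162 in the arrays labelled Sohlh1 KO and 1615, 1358, 1286 and 1304 in those labelled Sohlh2 KO. Both knockout labels were below wild type and overlapped each other, and the means were 2043 ± 163, 1273 ± 107 and 1391 ± 153 (SD, n = 4 each), or 62.3% and 68.1% of wild type. Its log2 difference was -0.68 (SE 0.10, limma adjusted p = 0.000732), -0.55 (SE 0.10, adjusted p = 0.00465) and -0.61 (SE 0.09, adjusted p = 0.000314). The large subunit Rrm1 read 3618, 3657, 4507 and 4015 in wild type, 3060, 2970, 2770 and 3068 in the arrays labelled Sohlh1 KO and 3110, 3343, 2977 and 3068 in those labelled Sohlh2 KO. It was also lower on every knockout array, with differences of -0.41 (SE 0.09, limma adjusted p = 0.0126), -0.33 (SE 0.09, adjusted p = 0.0423) and -0.37 (SE 0.08, adjusted p = 0.0063).

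The thymidine genes gave less. Tk1, thymidine kinase, had -0.25 in the mean of both (limma adjusted p = 0.146). Tyms, thymidylate synthase, had the largest p of the nucleotide genes and was dim: 56.8, 78.3, 53.2 and 110 in wild type, 84.4, 65.5, 38.2 and 41.5 in the arrays labelled Sohlh1 KO and 10.5, 81.2, 51.8 and 40.3 in those labelled Sohlh2 KO. These values lie around the filter of 48.6 units, the groups overlapped, and the difference of -0.50 (adjusted p = 0.416) has a 95% interval from -1.20 to 0.21. The other 3 probe sets of Tyms did not pass the filter.

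**Figure D2:**
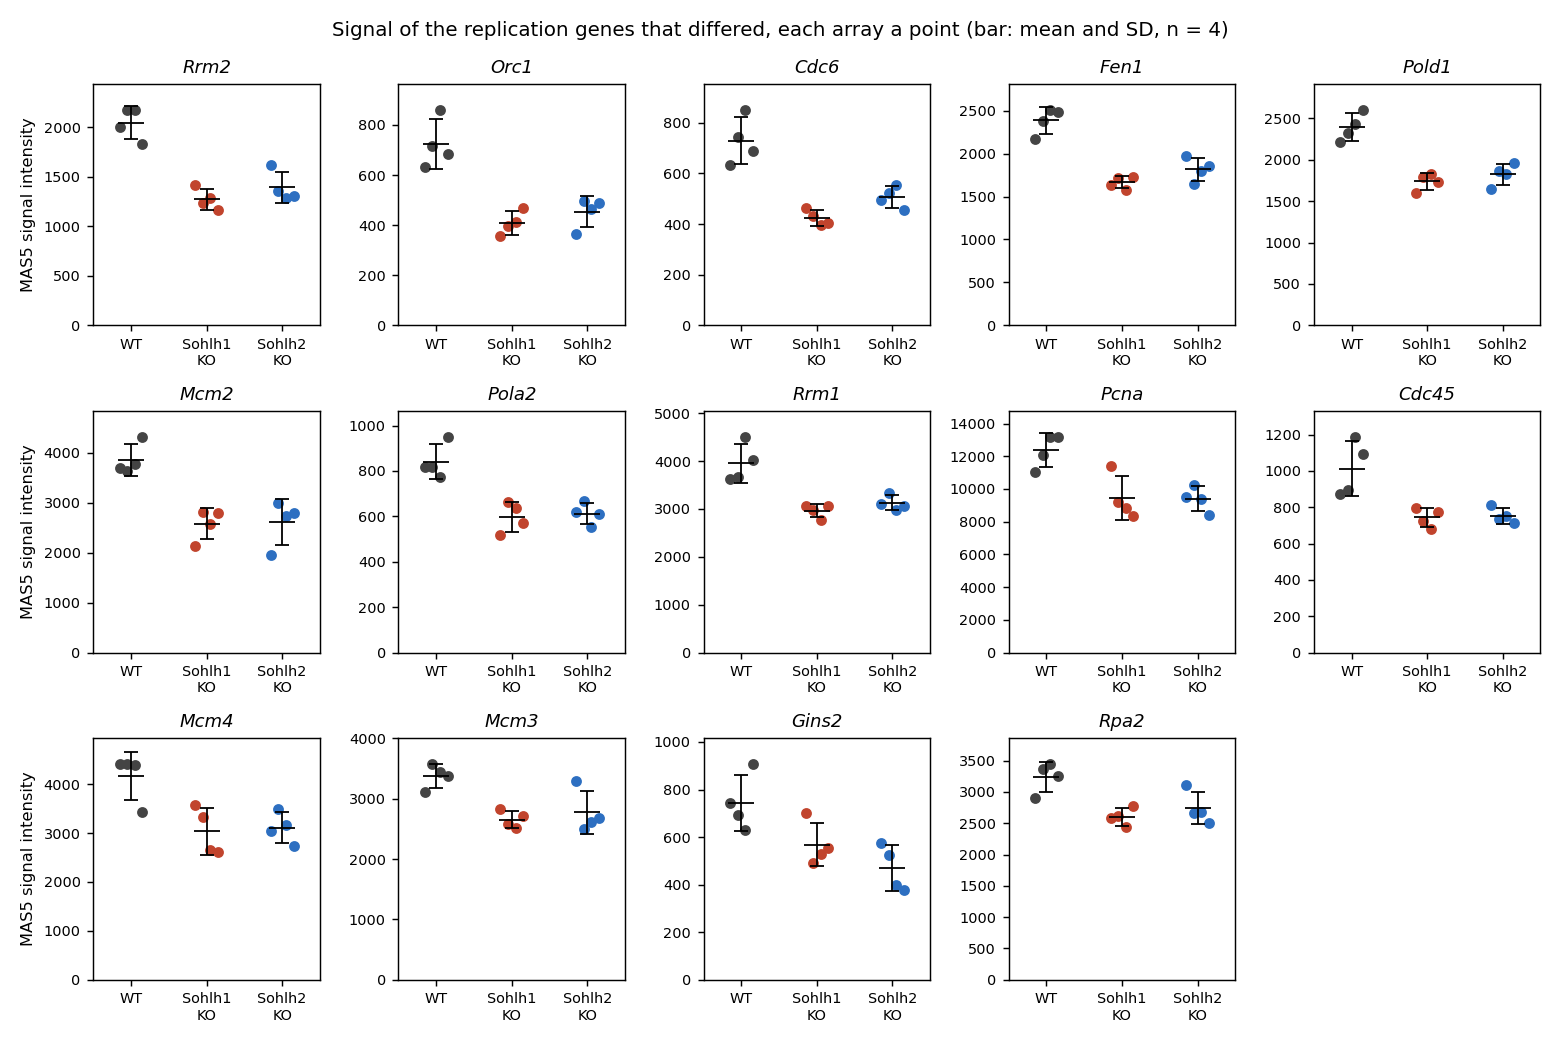
Signal intensity (linear scale, from 0) on each array for the 14 genes called lower in the mean of both knockouts, in order of p; points are arrays and bars are the mean and SD of 4. For Rrm2, Orc1, Cdc6, Fen1, Pold1, Mcm2, Pola2, Rrm1 and Cdc45 no knockout point reaches the lowest wild-type point; for Pcna, Mcm4, Mcm3, Gins2 and Rpa2 at least 1 does.

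Chaf1b, a subunit of the histone chaperone that assembles chromatin behind the fork, went the other way without passing the test. It read 998, 887, 682 and 724 in wild type, 1023, 1142, 1050 and 1019 in the arrays labelled Sohlh1 KO and 854, 1115, 1176 and 991 in those labelled Sohlh2 KO. All 4 arrays labelled Sohlh1 KO were above wild type, the 1 gene of 36 for which that was so, against 6.94% of all genes, and arrays 1 and 5 labelled Sohlh2 KO overlapped it. For no gene of the 36 were all 4 arrays labelled Sohlh2 KO, or all 8 knockout arrays, above wild type, against 5.54% and 3.05% of all genes. The difference in the mean of both was 0.35 with a 95% interval from 0.12 to 0.58 (limma adjusted p = 0.0642). It stayed positive, from 0.27 to 0.45, under 28 alternatives and passed the threshold in 9 of them, among them each of the 3 sets of arrays without those in doubt. E2f1, a transcription factor that drives genes of S phase, read 725, 557, 603 and 892 in wild type, 642, 544, 505 and 675 in the arrays labelled Sohlh1 KO and 831, 616, 617 and 657 in those labelled Sohlh2 KO. The groups overlapped, and E2f1 had log2 differences of -0.21 and -0.02 in the 2 knockouts and -0.11 in the mean of both (adjusted p = 0.659).

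**Figure D3:**
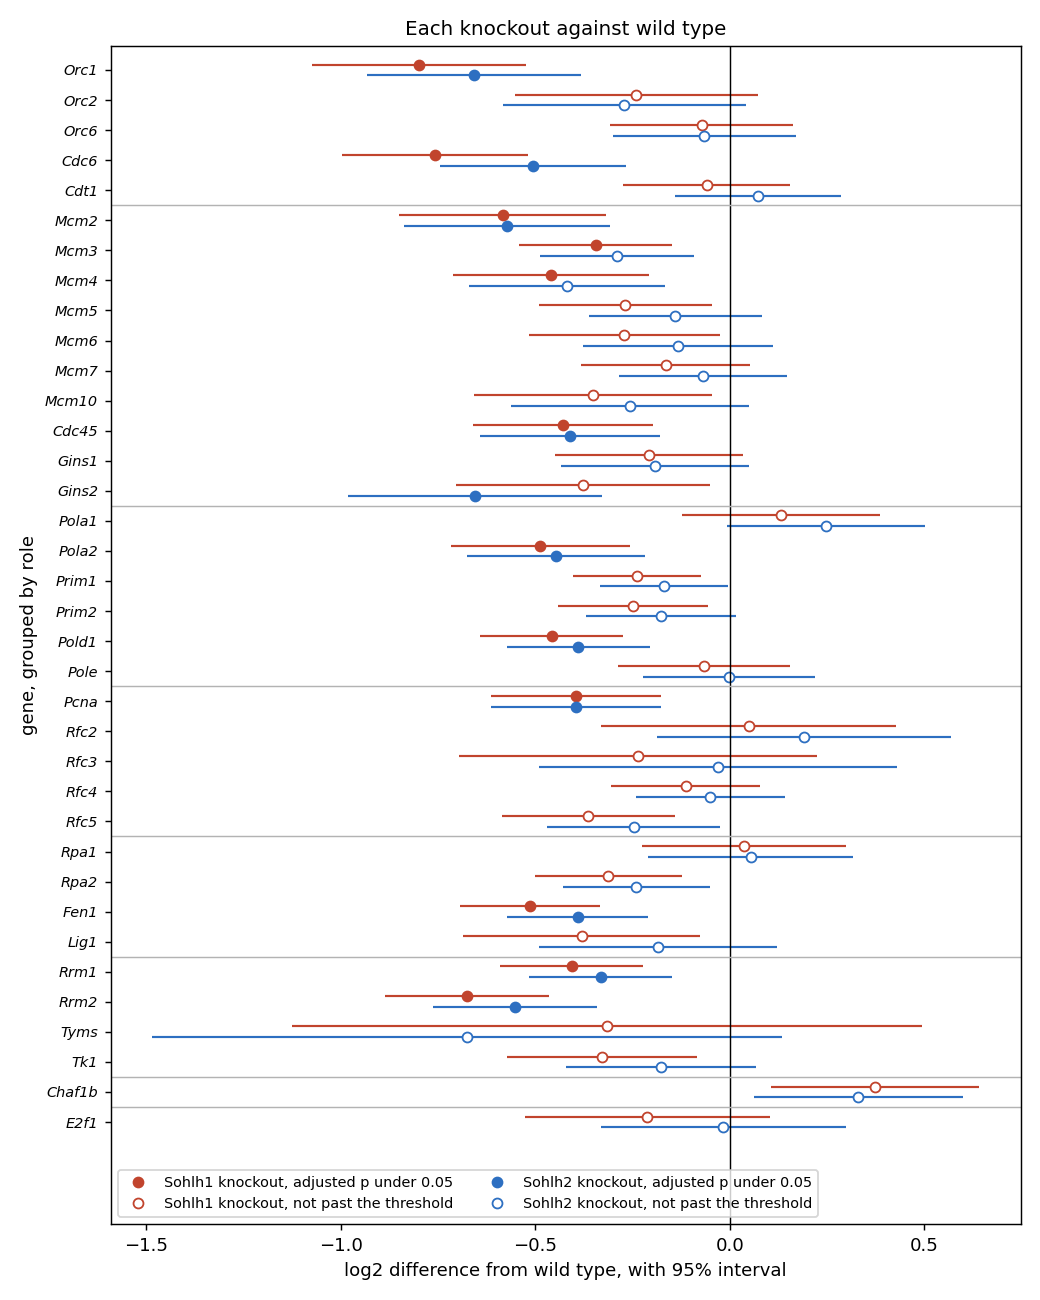
Log2 difference from wild type with its 95% interval for each of the 36 genes, red for the arrays labelled Sohlh1 KO and blue for those labelled Sohlh2 KO; filled points have an adjusted p under 0.05 and grey lines part the roles. The filled points lie between -0.80 and -0.33, and Chaf1b is at 0.37 and 0.33 with open points.

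The arrays were also compared without a model. All 4 arrays of a knockout label were below all 4 wild-type arrays for 18 of the 36 genes with the Sohlh1 KO label, against 6.58% of all genes, and for 13 with the Sohlh2 KO label, against 5.53%. For 11 genes all 8 knockout arrays were below wild type, against 3.58% of all genes: Orc1, Cdc6, Mcm2, Cdc45, Pola2, Prim1, Pold1, Rfc5, Fen1, Rrm1 and Rrm2. The 22 genes not called in any comparison ranged from -0.50 to 0.35 in the mean of both, 17 of them below 0, and the 95% intervals of 14 held 0.

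More than 1 probe set was tested for 25 of the 36 genes, and these need not agree. Of the 83 probe sets, 70 passed the filter, 64 of them on all 12 arrays, while 9 were above the filter level on no array. With every probe set tested as a row of its own among 28694, 61 of the 70 had a negative estimate in the mean of both knockouts, against 50.9% of all probe sets. Called lower were 17, of 14 genes, against 2.13% of all probe sets. These 14 are the genes called above with Mcm5 in and Rpa2 out. In the arrays labelled Sohlh1 KO 11 of the 70 were called lower (1.38% of all) and in those labelled Sohlh2 KO 8 were (0.944%). None was called higher, against 0.707%, 0.606% and 1.35% of all probe sets for the Sohlh1 KO label, the Sohlh2 KO label and the mean of both. All tested probe sets were negative for 19 of the 25 genes in the mean of both.

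The 3 probe sets of Rrm2 had log2 differences of -1.02, -0.61 and -0.74, each called by limma among all probe sets. A second probe set of Mcm5, reading 2979 ± 239 in wild type, 2206 ± 201 in the arrays labelled Sohlh1 KO and 2347 ± 231 in those labelled Sohlh2 KO (SD, n = 4 each), had -0.39 (limma adjusted p = 0.0235 over all probe sets), whereas the brightest one, on which Mcm5 was not called, had -0.20. Sizes differed between probe sets of the same gene: of 22 genes with more than 1 probe set above the filter on all 12 arrays, 11 had estimates over 0.2 apart in the mean of both. Among the largest gaps, the second probe set of Pold1 had -0.003 against -0.42, that of Orc1 had -0.25 against -0.73, and the 3 of Orc2 had -0.33, -0.26 and 0.16. Cdc45 had a dim second probe set, at a mean of 34.9 in wild type, with a positive estimate of 0.51, and Mcm5 had a dim further one that was also positive. Which probe set reads the transcript better was not tested.

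**Figure D4:**
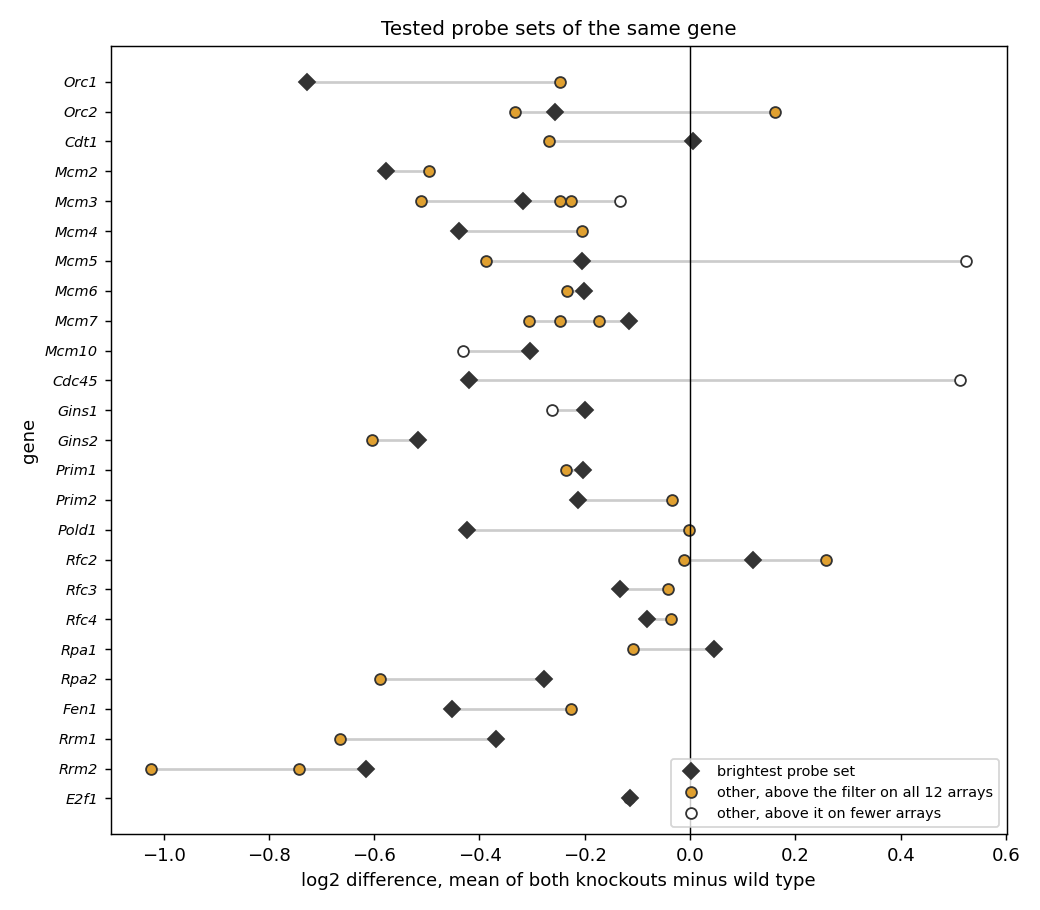
Log2 difference, mean of both knockouts minus wild type, of each tested probe set for the 25 genes with more than 1; diamonds are the brightest probe set, used elsewhere, filled circles are others above the filter on all 12 arrays and open circles are others above it on fewer arrays. Most points lie left of 0, the 2 right-most are open circles of Mcm5 and Cdc45, and the 2 points of E2f1, at -0.11 and -0.12, lie on each other.

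Other genes of DNA replication, 51 listed from textbook roles with earlier results of these data known, were also called in the lower direction. Of 49 tested, 16 were called lower in the arrays labelled Sohlh1 KO, 9 in those labelled Sohlh2 KO and 19 in the mean of both (38.8%), and none was called higher. Over all genes tested, 2.69%, 2.15% and 3.88% were called lower and 1.76%, 1.60% and 3.05% higher. Their median log2 differences were -0.19, -0.14 and -0.15. The 8 with the smallest p in the mean of both were Wdhd1, which couples polymerase alpha to the helicase, at -0.61, the histone chaperone Asf1b at -0.67, the licensing inhibitor Gmnn at -0.57, the polymerase delta subunit Pold2 at -0.68, Dbf4, the activator of the Cdc7 kinase, at -0.41, the Mcm-binding protein Mcmbp at -0.51, the histone chaperone Nasp at -0.41 and Uhrf1, which keeps DNA methylation through replication, at -0.42. The limma adjusted p of these 8 ran from 0.000311 to 0.00527. Cdt1, the protein that the product of Gmnn inhibits, had 0.01 on its brightest probe set and -0.27 on the other tested, neither past the test.

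Mitosis genes, read for comparison, were called lower in 11, 7 and 12 of 29 tested, against 2.69%, 2.15% and 3.88% of all genes. Their medians were -0.31, -0.21 and -0.28. Aurkb, Plk1 and Ccna2 had -0.71, -0.68 and -0.67 in the mean of both. Genes of the preceding G1 phase had medians of -0.05, -0.03 and -0.01, and 2, 2 and 3 of 18 (11.1%, 11.1% and 16.7%) were called lower. Those 3 were the cyclins Ccnd1 at -0.84 (limma adjusted p = 2.34e-05) and Ccne2 at -1.07 (adjusted p = 3.09e-05) and the inhibitor gene Cdkn2a at -0.56 (adjusted p = 0.029). Cdk4, the kinase that Ccnd1 activates, had 0.22 (adjusted p = 0.113).

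By array, the median of the 36 genes relative to the wild-type mean was -0.05 to 0.05 in wild type, -0.40 to -0.17 in the arrays labelled Sohlh1 KO and -0.32 to -0.17 in those labelled Sohlh2 KO. All 8 knockout arrays were below all 4 wild-type arrays. The mitosis genes had -0.04 to 0.06, -0.41 to -0.28 and -0.29 to -0.12 in the same order. Sertoli markers ran the other way or stayed level, with -0.06 to 0.06, 0.08 to 0.20 and -0.04 to 0.13.

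**Figure D5:**
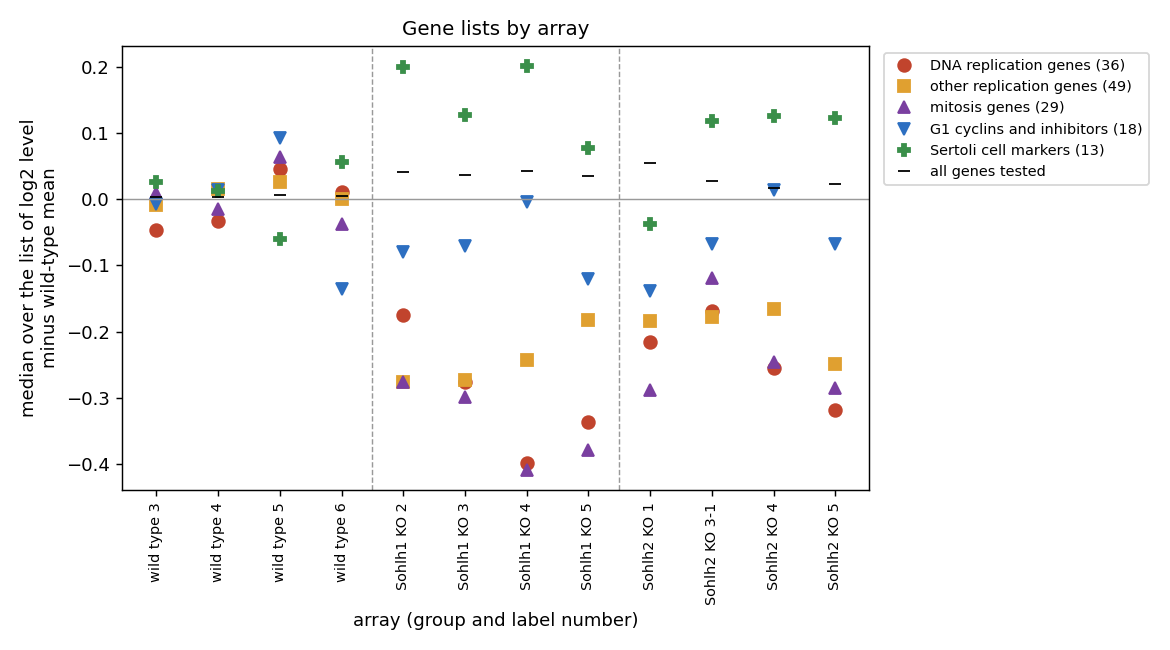
Median over each gene list of the log2 level minus that gene's wild-type mean (y axis) on each of the 12 arrays (x axis); symbols mark the lists. The replication and mitosis symbols sit below 0 on all 8 knockout arrays, the G1 symbols between -0.14 and 0.01 there, and the dashes for all genes tested between 0.02 and 0.05.

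Germ cell marker lists did not all move the same way. Beside the counts below, the shares of all genes called in the 3 comparisons were 2.69%, 2.15% and 3.88% lower and 1.76%, 1.60% and 3.05% higher. Of 9 differentiating spermatogonium markers 2 are the deleted genes Sohlh1 and Sohlh2. Of the other 7, 4, 4 and 5 were called lower in the 3 comparisons and 0, 1 and 1 higher, with a median of -1.94 in the mean of both. Kit, the receptor that marks these cells, had -1.94, Crabp1, a retinoic acid binding protein, -2.35 and Dmrtb1, a regulator of the mitosis to meiosis transition, -2.36. The 1 marker called higher went the other way, at 0.64 with the Sohlh2 KO label and 0.51 in the mean of both. The summed intensity of the 7 was 9284 to 12744 in wild type, 4349 to 5443 in the arrays labelled Sohlh1 KO and 4893 to 6359 in those labelled Sohlh2 KO. Of the undifferentiated markers 3 of 11 were called higher and 1 lower in each comparison, with Gfra1, the GDNF co-receptor, at 0.99, Pou5f1 at 1.17 and Neurog3 at -1.09, and their sum was 8082 to 8786, 8411 to 11057 and 9553 to 11781. Markers of all germ cells summed to 33484 to 37480, 32024 to 38268 and 34937 to 38514. Their median log2 differences were -0.18, -0.05 and -0.19. Estimates were negative for 7, 8 and 8 of 11, against 44.4%, 45.8% and 44.9% of all genes. In the mean of both 1 of 11, Gtsf1, was called higher at 0.91 and 1, Rnf17, lower at -0.27. The part of these shifts in the replication genes was not tested.

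Few markers of somatic cells were called. Over all genes tested, 4.44%, 3.75% and 6.93% were called for the Sohlh1 KO label, the Sohlh2 KO label and the mean of both. At such shares, lists this short would hold few calls or none. The lack of calls below therefore does not show that somatic markers differed less than other genes. None of 13 Sertoli markers was called in any comparison by limma, and their sum was 90877 to 104832 in wild type, 103468 to 116122 and 96660 to 108122 in the knockout labels. Their log2 differences ran from -0.04 to 0.75 with the Sohlh1 KO label and from -0.13 to 0.61 with the Sohlh2 KO label. In the mean of both they ran from -0.05 to 0.68, with a median of 0.10. None of 5 Leydig, 6 endothelial or 7 leukocyte markers was called, with sums of 11589 to 14300, 1349 to 2072 and 1897 to 2558 in wild type and 11760 to 13989, 1526 to 1902 and 2071 to 2806 over both knockout labels. Of 6 peritubular markers Actg2 was called lower in the arrays labelled Sohlh2 KO and in the mean of both, at -0.38, and the sum was 28988 to 33303 in wild type and 27702 to 35407 over both labels. Of 5 erythroid markers 1, Alas2, was tested, at 241 to 622 in wild type and 180 to 441 over both labels, and was not called. No marker list is a count of cells, and the share of dividing cells in these testes was not measured here.

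Leaving out the arrays in doubt did not lower the counts in the mean of both knockouts. Without the 2 arrays whose targeted genes go against their labels, 14, 11 and 18 of the 36 genes were called in the 3 comparisons, against 5.66%, 3.54% and 7.60% of all genes. Without the 2 of highest 3' to 5' ratio the counts were 17, 14 and 21, against 6.47%, 5.26% and 9.68%, and without all 3 arrays 13, 14 and 21, against 3.75%, 5.37% and 8.45%. In the mean of both, the share called over all genes was thus also higher than the 6.93% with all arrays. In the mean of both knockouts the 14 genes remained called in each of these, and the genes gained included Mcm5 and Lig1, both lower, and Chaf1b, which was higher. In single comparisons Mcm4 and Pcna lost the Sohlh1 KO call without the 2 label arrays (limma adjusted p = 0.0745 and 0.0726), as did Mcm4 and Pola2 without all 3 (adjusted p = 0.0537 and 0.102), and Rrm1 lost the Sohlh2 KO call without the 2 label arrays (adjusted p = 0.0619).

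Leaving out 1 array at a time ended the calls with the larger adjusted p, while the differences stayed similar in size. In the single comparisons these were most of the calls. In the mean of both knockouts Orc1, Cdc6, Mcm2, Pola2, Pold1, Fen1, Rrm1 and Rrm2 kept their call without any 1 of the 12 arrays. Cdc45 and Pcna lost it without wild-type array 5 or 6 (limma adjusted p up to 0.071 and 0.0613), Mcm4 without wild-type array 4 or 5 (up to 0.0699) and Mcm3 without wild-type array 4, 5 or 6 (up to 0.101). Gins2 lost it without wild-type array 3, 4 or 6, the array labelled Sohlh1 KO 3 or that labelled Sohlh2 KO 4 (up to 0.129). Rpa2 lost it without any 1 of 9 arrays (up to 0.149), that is, any but wild-type array 3 and the arrays labelled Sohlh1 KO 5 and Sohlh2 KO 1. Over these fits the difference in the mean of both ran from -0.45 to -0.36 for Pcna, from -0.53 to -0.40 for Mcm4, from -0.36 to -0.29 for Mcm3, from -0.48 to -0.34 for Cdc45, from -0.59 to -0.42 for Gins2 and from -0.33 to -0.25 for Rpa2. In the single comparisons Orc1, Cdc6, Pold1, Fen1 and Rrm2 kept the Sohlh1 KO call throughout, and Orc1 and Rrm2 the Sohlh2 KO call. Among the other Sohlh1 KO calls, Mcm2 was lost without wild-type array 6 (limma adjusted p = 0.0546), Rrm1 without wild-type array 5 (0.0544) and Pola2 without wild-type array 6 or the array labelled Sohlh1 KO 2 (up to 0.0652). Mcm3, Mcm4, Cdc45 and Pcna lost that call without 5 to 9 of the arrays, wild-type array 5 among them for each (adjusted p up to 0.131). Among the other Sohlh2 KO calls, Mcm2 was lost without wild-type array 6 (limma adjusted p = 0.0666), Cdc6 without wild-type array 4 or 5 or the array labelled Sohlh2 KO 5 (up to 0.0752) and Pold1 without wild-type array 5 or 6 or the array labelled Sohlh2 KO 4 (up to 0.0693). Cdc45, Gins2, Pola2, Pcna, Fen1 and Rrm1 lost it without 4 to 10 of the arrays, wild-type array 4 and the array labelled Sohlh2 KO 4 among them for each (adjusted p up to 0.163).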

How the data were processed

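The 12 arrays were read from the deposited table of probe set intensity values, which the authors made with MAS5 in GCOS, per the submitters' processing notes; no version of either is named in the sources used here. The trimmed mean of every array was 500.003 with 2% left out at each end, so the values were already scaled. Labelling used oligo(dT) primers, per the labels' protocols, which weights signal to 3' ends. Gene names came from the platform's annotation. Values were taken as log2(intensity + 14.2), the offset being their 20th percentile, so differences of dim genes are understated. Probe sets above 48.6, the 40th percentile, on at least 4 arrays were kept, 1 per gene with the highest mean log2 value. All 12 arrays entered 1 fit in limma 3.58.1 (R 4.3.3; lmFit, contrasts.fit, eBayes with trend, two-sided), adjusted by Benjamini-Hochberg over 13702 genes and tested on simulated data. Summaries used Python 3.11.15. No depth exists for arrays; the 4 arrays per group limit the precision. The members and lists were chosen with earlier results of these data known. Array values were given for every called gene and, in each role, for the genes of smallest and largest p in the mean of both knockouts; other lists were named by smallest p, and promoters by smallest p among called genes with an E2F spelling. Alternatives changed the scaling, offset, filter, probe set choice, variance model, threshold, replicate block and arrays used. Replicate numbers were not treated as pairs. Chaf1a was not analysed here.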

Additional observations from a re-analysis of the deposited data

Results flagged for a closer look

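In 120 groups of 4 values, 13 values stood apart from the other 3 of their group (a gap of over 0.829 of the group's range), where chance picks about 1 in 20 groups, or 6. The groups pool the replication genes with the targeted genes and the 3' to 5' ratios. Most of the 13 values are not of replication genes, so 13 against 6 gives no rate for these genes alone. Among the replication genes Mcm4 read 3439 on wild-type array 6, Rfc3 and Rfc4 read 1649 and 3746 on wild-type array 5, and Orc2 and Rpa1 read 820 and 8024 on the array labelled Sohlh2 KO 1. That array also stood apart in Sohlh2, at 1847, and in the ratios of 3' to 5' signal, at 3.56 for Actb and 1.63 for Gapdh. The array labelled Sohlh1 KO 2 stood apart in the same ratios, at 2.10 and 1.17, and wild-type array 3 in that of Actb, at 1.43. The array labelled Sohlh1 KO 5 stood apart in Sohlh1, at 595, and in Sohlh2, at 94.4.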

How the results depend on the processing

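The direction of the median of the 36 genes held under every alternative run, from -0.36 to -0.27 for the Sohlh1 KO label, from -0.25 to -0.17 for the Sohlh2 KO label and from -0.29 to -0.22 in the mean of both. Counts of called genes moved more. The share of all genes called in the same fit is given here only for the fits without the arrays in doubt. For the others, a move in the calls over all genes cannot be told from one in the 36 genes. Leaving out 1 array at a time gave 7 to 16, 4 to 12 and 9 to 17 called genes in these comparisons and 0 between the knockouts; the counts fell by over 1.5 times without wild-type array 5 or 6 in all 3 (7 and 7, 5 and 4, 9 and 9) and, for the Sohlh2 KO label, without wild-type array 4 (4) or its own array 4 (4) or 5 (5). Averaging all probe sets of a gene gave 6, 6 and 7, and a threshold of 0.01 gave 5, 2 and 8. With this averaging Orc1, Mcm3, Mcm4, Cdc45, Pold1, Fen1 and Rrm1 lost their call in the mean of both. For the Sohlh2 KO label, median centring gave 5, and every probe set as its own row and eBayes without the trend gave 6 each. Deviations of same-numbered arrays correlated at -0.03 to 0.08, so the numbers were not taken as pairs; with the replicate number as a block the Sohlh2 KO count was 3 with 3-1 as its own level and 7 with 3-1 as 3, the Sohlh1 KO counts were 11 and 13 and those of the mean of both 16 and 18. Averaging all probe sets turned the sign of Cdc45, to 0.026, 0.068 and 0.047, since its dim second probe set is positive. With the threshold at 0.05, Cdc6, Mcm2, Pola2 and Rrm2 kept their call in the mean of both under every alternative run, as did Cdc6 and Rrm2 with the Sohlh1 KO label and Rrm2 with the Sohlh2 KO label. The cause of the other moves was not tested. The fit on 2 groups alone does not apply to the mean of both.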
